A study of Gallus gallus with 8 samples.

Results

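The regions described are the accessible sites, or peaks, on chicken chromosomes 16, 30, 31 and 32. Every peak whose listed chromosome is one of these 4 was taken, in each of 4 deposited peak lists, which gave 1587 peaks of 53397. Of these, 197 were in HD3 erythroblasts and 312 in red blood cells of the embryo, 601 in those of the adult hen (both called red cells here), and 477 in fibroblasts. By chromosome, 415 lay on chromosome 16, 474 on chromosome 30, 550 on chromosome 31 and 148 on chromosome 32.

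The assay was ATAC-seq: the Tn5 transposase cuts open DNA and leaves sequencing adapters at the cuts. The 8 samples, 2 for each cell type, all carried the wild-type genotype. HD3 cells are an immortal line of red cell precursors, and the embryonic red blood cells came from day 10 of development. The adult red blood cells came from hens aged 28 to 38 weeks, and the fibroblasts, the non-erythroid cell type, were primary cultures. HD3 cells and fibroblasts were grown in medium with fetal bovine and chicken serum, while the labels give no culture for the red blood cells. The protocol exposed nuclei of 150000 cells to Tn5 for 30 min, and libraries had 10 PCR cycles. Each cell type has 1 list, and the sources used here do not say whether it was made from 1 sample or from both. The peak names hold a digit, 2 in the erythroid lists and 1 in fibroblasts, which may be the number of a single sample. With 1 list per cell type no value has a replicate error, and the intervals given cover counting error over peaks only. The lists hold no read counts, so the depth behind them is unknown.

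The chicken genome is split into a few large chromosomes and many very small ones, the microchromosomes, which are rich in genes and in G and C bases. Chromosome 16 carries the major histocompatibility complex, whose proteins present antigens, and the nucleolus organizer with the repeated genes for ribosomal RNA. Chromosome 31 carries many copies of the chicken immunoglobulin-like receptor genes, which belong to white blood cells. Red blood cells of birds keep a condensed nucleus, so their accessible chromatin can be mapped to the end of maturation. A bulk list does not tell a site open in a few cells from one weakly open in all, and the cell type labels were not set against marker genes here, because no gene annotation of the build of the lists was used.

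The positions are those of the build GRCg6a, which the submitters' processing notes name. Chromosome length was taken as the reach, the end of the last peak in any list. By reach, chromosomes 32 (0.725 Mb), 30 (1.82 Mb) and 16 (2.84 Mb) were the smallest of 34 chromosomes with peaks. Chromosome 31, with a reach of 6.14 Mb, was only the ninth smallest, so 3 of the 4 are the smallest by this measure and chromosome 31 is not.

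Each of the 4 lists had more peaks on these chromosomes together than their summed length would give. Together the chromosomes made up 1.10% of the summed reach, and they held 1.67% of HD3 erythroblast peaks (95% Wilson interval 1.46% to 1.92%) and 2.48% of embryonic red cell peaks (2.23% to 2.77%). The share was 5.27% (4.88% to 5.70%) in adult red cells, against 2.70% (2.47% to 2.95%) in fibroblasts. Adult red cells had the largest share although their list was the shortest. Chromosome 31 alone made up 0.585% of the summed reach, so shares without it stand against a reach below 1.10%. Without it the share was 3.40% in adult red cells and 1.59% in fibroblasts. Among peaks of all 4 chromosomes whose −log10 q, the caller's significance, reached 10, the fibroblast share was 4.31%. Density on the 4 chromosomes was 17.1 peaks per Mb in HD3 erythroblasts, 27.1 in embryonic red cells, 52.2 in adult red cells, and 41.4 in fibroblasts. On all other chromosomes the densities were 11.1, 11.8 and 10.4 per Mb in the same erythroid order, and 16.6 in fibroblasts. High density was not particular to the 4 chromosomes, which held 1587 peaks over the 4 lists in 11.5 Mb. Chromosome 33 held 1609 in a reach of 7.79 Mb, and chromosome 25 held 615 in 3.97 Mb.

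The 4 chromosomes did not behave alike. Chromosome 32 had 43, 34 and 46 peaks in HD3 erythroblasts, embryonic and adult red cells, against 25 in fibroblasts. With 59.3 peaks per Mb it was the densest chromosome of the HD3 erythroblast list. Chromosome 30 had 74, 96 and 173 peaks in the same order, against 131 in fibroblasts, and was the densest chromosome of both red cell lists, with 52.8 per Mb in embryonic and 95.1 per Mb in adult cells. Chromosome 16 had 40, 82 and 168 peaks, against 125 in fibroblasts. By density it was at rank 19, 8 and 4 of 34 in the erythroid lists and at rank 4 in fibroblasts. Chromosome 31 had 40, 100 and 214 peaks, against 196 in fibroblasts. In HD3 erythroblasts its 6.52 peaks per Mb put it at rank 32 of 34 chromosomes, with 0.340% of the list for 0.585% of the summed reach. In embryonic red cells it was at rank 19, while in adult red cells and in fibroblasts it was at rank 7. Chromosomes 16, 30 and 31 thus had their fewest peaks in HD3 erythroblasts and their most in adult red cells, and chromosome 32 had its fewest in fibroblasts.

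**Figure D1:**
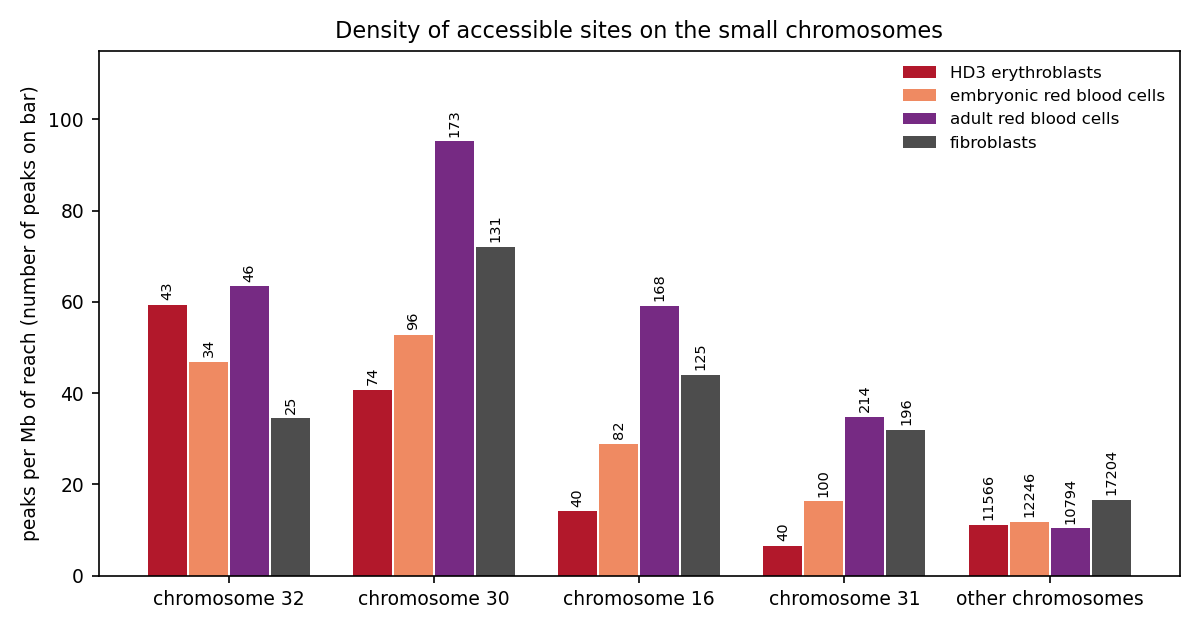
Peaks per Mb of reach (vertical axis) on chromosomes 32, 30, 16 and 31, ordered by reach, and on all other chromosomes, with 1 bar for each list and the number of peaks above it. The adult red cell bar is the tallest on each of the 4 chromosomes, with 95.1 per Mb on chromosome 30, and the shortest on the other chromosomes, with 10.4 per Mb.

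Peaks on the 4 chromosomes together lay in full bins more often than in the whole lists, though not on every chromosome. On the 4 chromosomes 18.8% of HD3 erythroblast peaks lay in bins of 100 kb with 10 or more peaks. The background was 0.604% in the whole list, which includes these peaks, and 0.294% on the other chromosomes. In embryonic red cells the share was 19.2%, with a background of 6.30%, and in adult red cells 47.3%, with a background of 17.2%. In fibroblasts it was 50.9%, with a background of 19.8%. The share was over the background in each list. The cutoff is a fixed number of peaks, so this share also reflects density, and clustering beyond density was not tested. HD3 erythroblasts had no such bin on chromosome 31 (0 of 40 peaks), and embryonic red cells (0 of 34) and fibroblasts (0 of 25) had none on chromosome 32. Such bins numbered 3, 4 and 19 of 118 on the 4 chromosomes in the 3 erythroid lists, and 14 in fibroblasts. On the other chromosomes they numbered 3, 63 and 112 of 10393, and 190 in fibroblasts. The fullest bin there held 13, 21 and 57 peaks in the erythroid lists and 51 in fibroblasts. On the 4 chromosomes the fullest held 14, 20 and 31, and 36 in fibroblasts. The median distance from a summit to the next on the 4 chromosomes was 12278 bp in HD3 erythroblasts, 10571 bp in embryonic red cells, 6279 bp in adult red cells, and 5017 bp in fibroblasts. On the other chromosomes it was between 17124 and 37232 bp in the 4 lists.

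**Figure D2:**
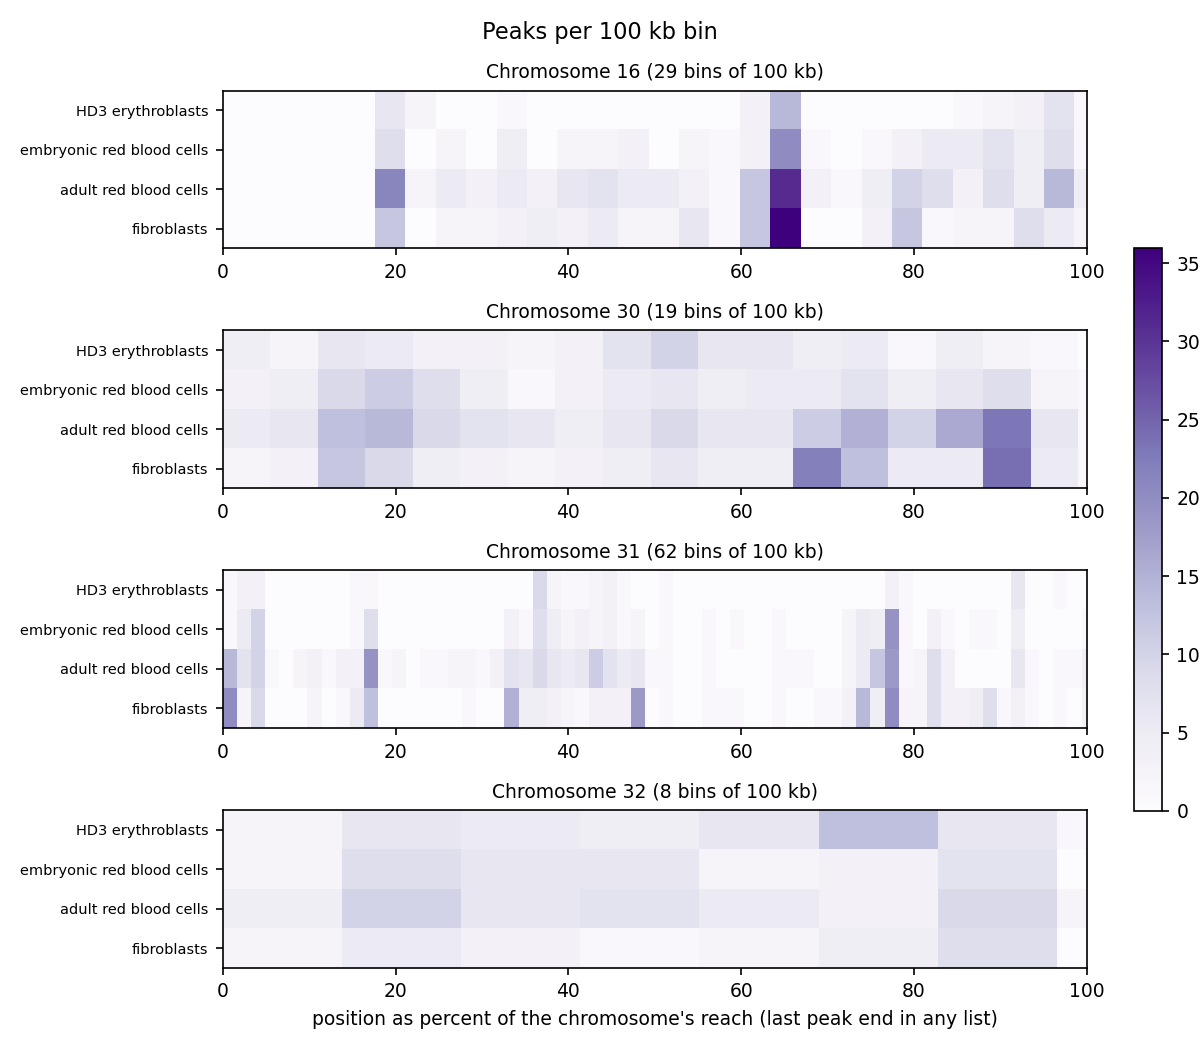
Number of peaks in each 100 kb bin (colour scale) along chromosomes 16, 30, 31 and 32, with position as a percent of the reach and 1 row for each list. A single bin of chromosome 16 is the darkest in all 4 rows, with 14, 20, 31 and 36 peaks from the HD3 erythroblast row down to the fibroblast row, while the fullest bin of chromosome 31 differs between rows.

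On chromosome 16 no list had a peak before position 503525, a stretch that its reach includes. This was not particular to chromosome 16. The first peaks of chromosomes 13, 6, 10, 9 and 17 lay later still, at 506885 to 608133. The first peaks of chromosome 16 formed a group in which the region from 520804 to 520982 stood near the top of 3 lists. By fold enrichment, the ratio of pileup to local background that the authors' peak caller gives at each summit, it ranked 6 of 11763 in HD3 erythroblasts (40.7) and 17 of 12558 in embryonic red cells (32.02). It ranked 3169 of 11395 in adult red cells (10.3) and 255 of 17681 in fibroblasts (11.2). By the −log10 p of the same peaks it ranked 3, 1 and 14 in the erythroid lists and 17 in fibroblasts, so the peak in adult cells was near the top of its list by p-value and not by fold enrichment. The 4 summits lay within 6 bp of one another. The other region of all 4 lists with the best ranks on this chromosome lay at 2745459 to 2745817, near the last peaks, with percentiles of fold enrichment within the list of 95.1, 95.1 and 91.6 in the erythroid lists and 95.2 in fibroblasts (100 being the strongest peak).

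The fullest bin of chromosome 16 was the same in all 4 lists, from 1800001 to 1900000. It held 14 peaks in HD3 erythroblasts, 20 in embryonic red cells, 31 in adult red cells, and 36 in fibroblasts, which was 35.0%, 24.4% and 18.5% of the erythroid peaks of the chromosome and 28.8% of the fibroblast peaks. These peaks filled only the first part of the bin. From the first to the last of them, peaks covered 13.3% of the stretch in HD3 erythroblasts, 16.5% in embryonic red cells, 22.4% in adult red cells and 30.4% in fibroblasts, where the stretch ran from 1799898 to 1843389. From 1843390 to 1969571 followed 126 kb with no peak in any list.

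Within the cluster the lists differed in how strong the peaks were. The median percentile of fold enrichment was 92.7 in HD3 erythroblasts and 81.2 in embryonic red cells, but 3.71 in adult red cells and 2.299 in fibroblasts. In HD3 erythroblasts 8 of the 14 peaks, and in embryonic cells 10 of the 20, were among the top 10% of the list, a background of 10.0% by construction. In adult cells 22 of 31 and in fibroblasts 28 of 36 were among the lowest 10%. The lowest 10% also held 3 of the 14 HD3 erythroblast peaks and 5 of the 20 embryonic peaks. The top 10% held 2 of the 36 fibroblast peaks and 0 of the 31 adult peaks. By −log10 p the median percentiles were 97.0, 95.5 and 72.4 in the erythroid lists and 98.1 in fibroblasts. The fibroblast peaks of the cluster therefore had low fold enrichments and high significance in the same list, and 29 of the 36 were among the top 10% by −log10 p.

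The strongest peak of the cluster had rank 2 in HD3 erythroblasts, at 1806308 to 1806408 with a fold enrichment of 45.7. It also had rank 2 in embryonic red cells, at 1806295 to 1806416 with 52.1. The peaks at this place ranked 5343 in adult red cells (7.07) and 10484 in fibroblasts (4.43), and these were wider. The peak measured 101 bp in HD3 erythroblasts, 122 bp in embryonic cells, 363 bp in adult cells and 323 bp in fibroblasts. At its downstream end the cluster held the widest peak of 2 whole lists. It measured 3132 bp in HD3 erythroblasts, from 1838541 to 1841672, and 3212 bp in embryonic red cells, from 1838526 to 1841737. In adult red cells and in fibroblasts 2 peaks lay there, and the wider of them measured 1495 bp in adult cells and 1536 bp in fibroblasts, each the widest of its list on the 4 chromosomes. By fold enrichment these widest peaks were weak, with percentiles of 0.264, 0.908 and 5.54 in the erythroid lists and 4.38 in fibroblasts. The 2 peaks that follow in HD3 erythroblasts, from 1841956 to 1842946, had the lowest fold enrichments of all 11763, at 2.76 and 2.07. Among the 10 lowest peaks of each whole list, this bin held 2 in HD3 erythroblasts, 1 in embryonic red cells, 3 in adult red cells, and 5 in fibroblasts.

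**Figure D3:**
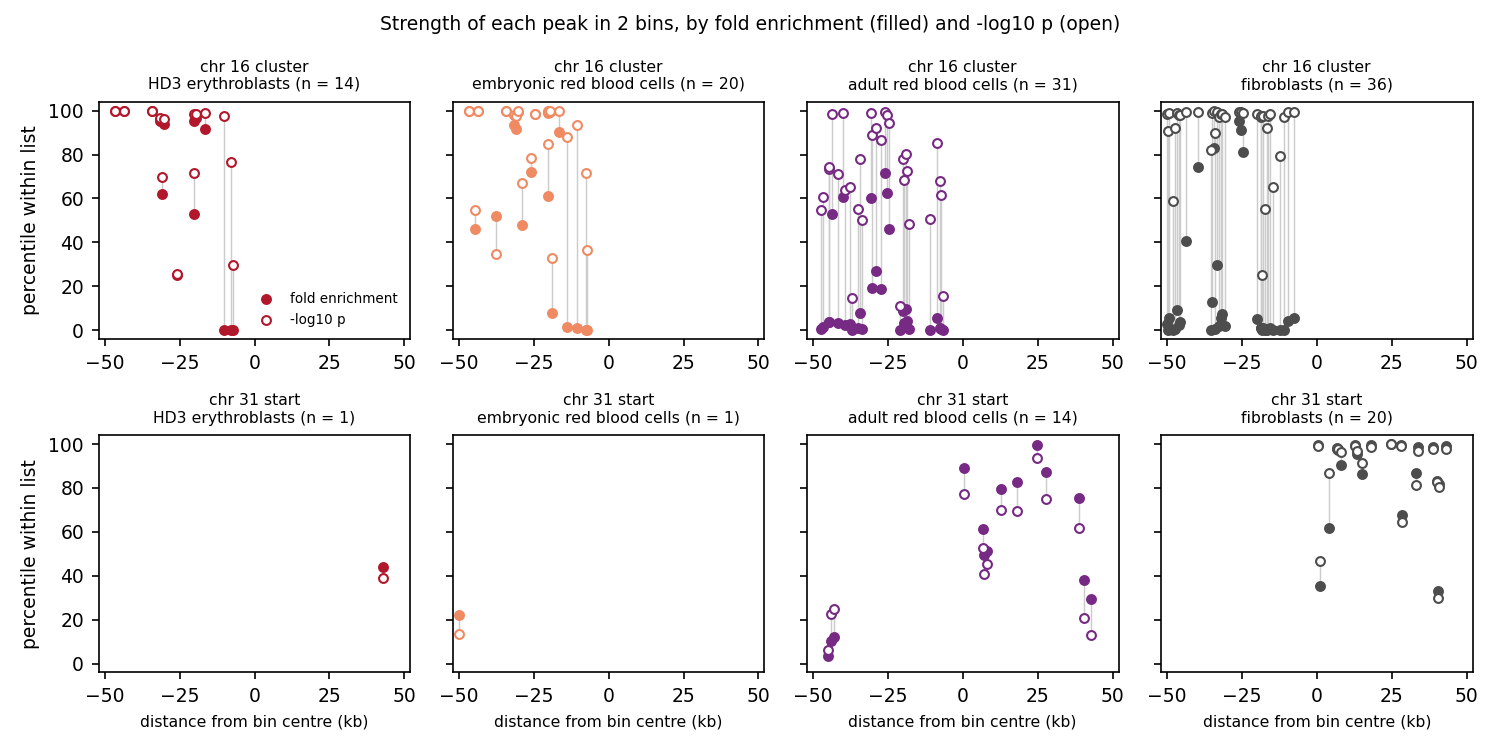
Percentile within the list of each peak by fold enrichment (filled points) and by −log10 p (open points), against distance from the bin centre in kb, in the fullest bin of chromosome 16 (upper row) and the first bin of chromosome 31 (lower row), with 1 panel for each list. In the upper row the filled points have medians of 92.7 and 81.2 in HD3 erythroblasts and embryonic red cells and of 3.71 and 2.299 in adult red cells and fibroblasts, while the lower row is nearly empty in the first 2 lists.

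Outside this bin the strongest peak of chromosome 16 in adult red cells lay at 1166630 to 1166733 and ranked 64 with a fold enrichment of 31.2. It was overlapped in embryonic cells, where the peak ranked 336, and in no other list. The place of the strongest fibroblast peak, at 2226869 to 2227046, had rank 5406 in adult red cells and rank 93 in fibroblasts (15.5), and no peak in the other lists. The 2 strongest adult red cell peaks of the 4 chromosomes that no other list overlapped were also on chromosome 16, at 2296333 to 2296472 (fold enrichment 18.6, rank 892) and at 2289106 to 2289791 (15.6, rank 1429). Without the fullest bin, the median percentile of the chromosome was 54.6, 45.8 and 40.5 in the erythroid lists and 54.3 in fibroblasts, against 62.2, 48.4 and 33.4 and, in fibroblasts, 29.7 with it. The low fibroblast median of the chromosome thus went with that 1 bin.

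Chromosome 30 had peaks in 18 of its 19 bins in HD3 erythroblasts and in all 19 in the other lists. Its fullest bin lay at 900001 to 1000000 in HD3 erythroblasts, with 10 peaks, and at 300001 to 400000 in embryonic red cells, with 11. In adult red cells and fibroblasts it lay at 1600001 to 1700000. There HD3 erythroblasts had 2 peaks, embryonic cells 8, adult cells 23 and fibroblasts 24. A bin at 1200001 to 1300000 held 4 peaks in HD3 erythroblasts, 5 in embryonic cells, 11 in adult cells and 22 in fibroblasts. Of these 22, 15 were in no other list, where 57.9% of fibroblast peaks on the other chromosomes were. The adult and fibroblast lists therefore shared their fullest bin but not the next one.

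The best-ranked regions of all 4 lists on chromosome 30 were not among the top 1% of any list. The first, at 918609 to 919036, had percentiles of 89.95, 89.5 and 94.3 in the erythroid lists and 90.2 in fibroblasts. The second, at 836271 to 836773, had 90.4, 84.5 and 91.5, and 90.2 in fibroblasts. In HD3 erythroblasts the strongest peak, at 89205 to 89662, had a fold enrichment of 15.5 and rank 1100, and no HD3 peak of this chromosome was among the top 1% of the list (1.01% of all its peaks with ties).

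The strongest peaks of the other lists were far higher in rank. The top 1% held 2 embryonic and 6 fibroblast peaks of this chromosome, but 0 of its 173 adult peaks. The strongest fibroblast peak was met by peaks at rank 4410 in HD3 erythroblasts, 637 in embryonic cells and 851 in adult cells. In fibroblasts it lay at 1757186 to 1758051, was 866 bp wide and ranked 25 with a fold enrichment of 25.6. In adult red cells the peak at 1057580 to 1057850 ranked 134 (28.1), with rank 2852 in HD3 erythroblasts, 191 in embryonic cells and 10595 in fibroblasts. Both red cell lists thus ranked this place far above HD3 erythroblasts and fibroblasts. The strongest embryonic peak, at 1818066 to 1818198, ranked 60 (22.8) and lay at the end of the reach of the chromosome. It was overlapped in adult red cells (rank 215) and fibroblasts (rank 141), and HD3 erythroblasts had no peak there. The strongest fibroblast peak of the 4 chromosomes that no other list overlapped lay at 1716663 to 1717166, with rank 63 and a fold enrichment of 18.3. The 2 strongest such peaks of embryonic red cells were on this chromosome as well, at 1239038 to 1239117 (14.1, rank 1365) and at 1516703 to 1516931 (11.6, rank 2647).

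Of the 4 chromosomes, chromosome 31 had the largest share of empty bins in every list. Of its 62 bins, 17 held a peak in HD3 erythroblasts, 30 in embryonic red cells, 47 in adult red cells, and 41 in fibroblasts. A stretch of 336 kb from 3132958 to 3469058 and another of 266 kb from 3689791 to 3956135 held no peak of any list. The first of these began at the end of the region from 3132671 to 3132957, the strongest of all 4 lists, which ranked 1, 1 and 6 in the erythroid lists and 4 in fibroblasts, with summits within 9 bp. The second-best region of all lists, at 5647252 to 5647761, had percentiles of 95.2, 89.8 and 91.2, and 90.8 in fibroblasts.

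The fullest bins of chromosome 31 differed between the lists. HD3 erythroblasts had at most 9 peaks in a bin, from 2200001 to 2300000, where embryonic and adult red cells had 8 and 9 and fibroblasts 4. Adult red cells had 19 peaks from 1000001 to 1100000, where HD3 erythroblasts had 1, embryonic cells 8 and fibroblasts 13. Their median percentile of fold enrichment there was 10.6, so this bin was full of weak peaks.

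The first 100 kb of chromosome 31 held 1 peak in HD3 erythroblasts, 1 in embryonic cells and 14 in adult cells, against 20 in fibroblasts. In adult cells the median percentile of the bin was 56.3. The fibroblast peaks ran from 50329 to 93128 and were strong, with a median percentile of fold enrichment of 96.6 and 12 of 20 among the top 10% of the list. By −log10 p the median was 96.9. The strongest, at 74641 to 74761, ranked 9 of 17681 with a fold enrichment of 35.4. Full bins thus did not share 1 kind of peak: the fibroblast bin here was strong by both measures and the one on chromosome 16 was strong by −log10 p alone.

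The bin from 4700001 to 4800000 held 3 HD3 erythroblast, 19 embryonic and 18 adult red cell peaks, and 20 fibroblast peaks. It was the fullest bin of the chromosome in embryonic cells and, level with the first bin, in fibroblasts. Most of the red cell and fibroblast peaks fell into 3 groups spaced along the first part of the bin, at 4702177 to 4706147, 4711793 to 4714155 and 4719393 to 4723065. The groups had 6, 4 and 6 embryonic peaks and 4, 3 and 6 adult peaks, and 8, 4 and 4 fibroblast peaks, while HD3 erythroblasts had a single peak in the second. Median percentiles of fold enrichment in the bin were low in every list, at 21.1, 30.9 and 2.17 in the erythroid lists and 2.97 in fibroblasts. By −log10 p they were 20.0, 56.6 and 46.8, and 83.04 in fibroblasts. As in the chromosome 16 cluster, fibroblast peaks here were weak by fold enrichment and high by −log10 p. A further bin, from 2900001 to 3000000, had no HD3 erythroblast peak, 2 embryonic and 6 adult peaks, against 18 in fibroblasts. Of these 18, 13 were in no other list, where 57.9% of fibroblast peaks on the other chromosomes were. One of the 13, at 2912190 to 2912478, had rank 101. The strongest HD3 erythroblast peak of the 4 chromosomes with no overlap in another list, at 2219705 to 2219854, had a fold enrichment of 13.6 and rank 1758, and the next, at 645299 to 645463 on chromosome 16, had 13.4 and rank 1859.

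On chromosome 32 HD3 erythroblasts were at their densest, and fibroblasts had the lowest density of the 4 lists, 34.5 peaks per Mb, which was still rank 6 of 34 chromosomes in their own list and over the 16.6 per Mb of the other chromosomes. The HD3 list had 13 peaks from 500001 to 600000, against 3 each in embryonic and adult red cells and 4 in fibroblasts. Of the 13, 7 were in no other list, where 31.9% of HD3 erythroblast peaks on the other chromosomes were. Their median percentile of fold enrichment was 41.3, and none was among the top 10% of the list. Both red cell lists were fullest from 100001 to 200000, with 8 embryonic and 10 adult peaks, and fibroblasts from 600001 to 700000, with 8. The best-ranked region of all 4 lists lay at 643572 to 644046, with percentiles of 94.3, 85.3 and 96.0 in the erythroid lists and 92.7 in fibroblasts, and it was also the strongest adult peak of the chromosome. The next lay at 250033 to 250466, with 89.1, 83.05 and 94.1, and 91.5 in fibroblasts.

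The other leading peaks of chromosome 32 were also found in several lists. The strongest HD3 erythroblast peak, at 387469 to 387799, had a fold enrichment of 19.8 and rank 312. The strongest embryonic peak, at 618220 to 618424, had 17.2 and rank 499, and was overlapped in adult red cells and fibroblasts but not in HD3 erythroblasts. The strongest fibroblast peak, at 296753 to 297324, had 9.28 and rank 545, and peaks of 668, 682 and 676 bp overlapped it in the 3 erythroid lists. No peak of this chromosome was among the top 1% of any list.

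Merging overlapping peaks of the 4 lists gave 911 union regions on the 4 chromosomes. Of these, 526 regions (57.7%) were in 1 list, 206 (22.6%) in 2, 100 (11.0%) in 3 and 79 (8.67%) in 4. The background over all union regions was 62.8% in 1 list and 10.1% in 4. The chromosomes differed widely. Regions of all 4 lists made up 22.7% on chromosome 32 (15 of 66), 13.3% on chromosome 30 (34 of 256), 7.11% on chromosome 16 (17 of 239) and 3.71% on chromosome 31 (13 of 350).

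The combinations of lists were also distributed differently. Regions in adult red cells alone made up 26.1% (238 regions), where all union regions had 8.76%. Regions in adult red cells and fibroblasts alone made up 13.0% (118), where all had 4.10%. The combination of embryonic and adult red cells with fibroblasts held 6.37% (58), where all had 2.44%. Lower shares were found for HD3 erythroblasts alone, with 5.27% (48) where all had 11.9%, for HD3 erythroblasts with embryonic cells, with 0.659% (6) where all had 3.72%, and for fibroblasts alone, with 20.1% (183) where all had 32.4%. Regions in embryonic red cells alone made up 6.26% (57), where all had 9.81%, and those in embryonic and adult red cells 6.15% (56), where all had 4.69%. The 3 erythroid lists without fibroblasts made up 3.40% (31), where all had 5.01%. The remaining combinations were rare: HD3 erythroblasts with adult cells 1.10% (10), HD3 with adult cells and fibroblasts 0.549% (5), HD3 with embryonic cells and fibroblasts 0.659% (6), HD3 with fibroblasts 0.768% (7), and embryonic cells with fibroblasts 0.988% (9). All union regions had 0.430%, 0.188%, 2.43%, 2.96% and 1.08% in these 5 combinations. Adult cells, with or without fibroblasts, were thus present in the combinations whose share was higher on the 4 chromosomes. Not every combination with adult cells was higher. The 3 erythroid lists had 3.40% where all had 5.01%, and all 4 lists had 8.67% where all had 10.1%. An adult peak lay in 65.3% of union regions here and in 34.8% on the other chromosomes. The part of adult peak number in these shares was not tested.

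The chromosomes also differed in these combinations. Adult red cells and fibroblasts alone shared 57 regions on chromosome 31 (16.3%), 32 on chromosome 16 (13.4%) and 29 on chromosome 30 (11.3%). The intervals of these shares overlapped, so these chromosomes were not told apart. Chromosome 32 had none of its 66 regions in this combination, with an interval up to 5.5% that lay below the others. On chromosome 32, 12 of the 66 regions were in HD3 erythroblasts alone. That was 18.2% (10.7% to 29.1%), an interval that held the 11.9% of all union regions. Only 2 of the 66 (3.03%) were in fibroblasts alone, where all union regions had 32.4%.

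**Figure D4:**
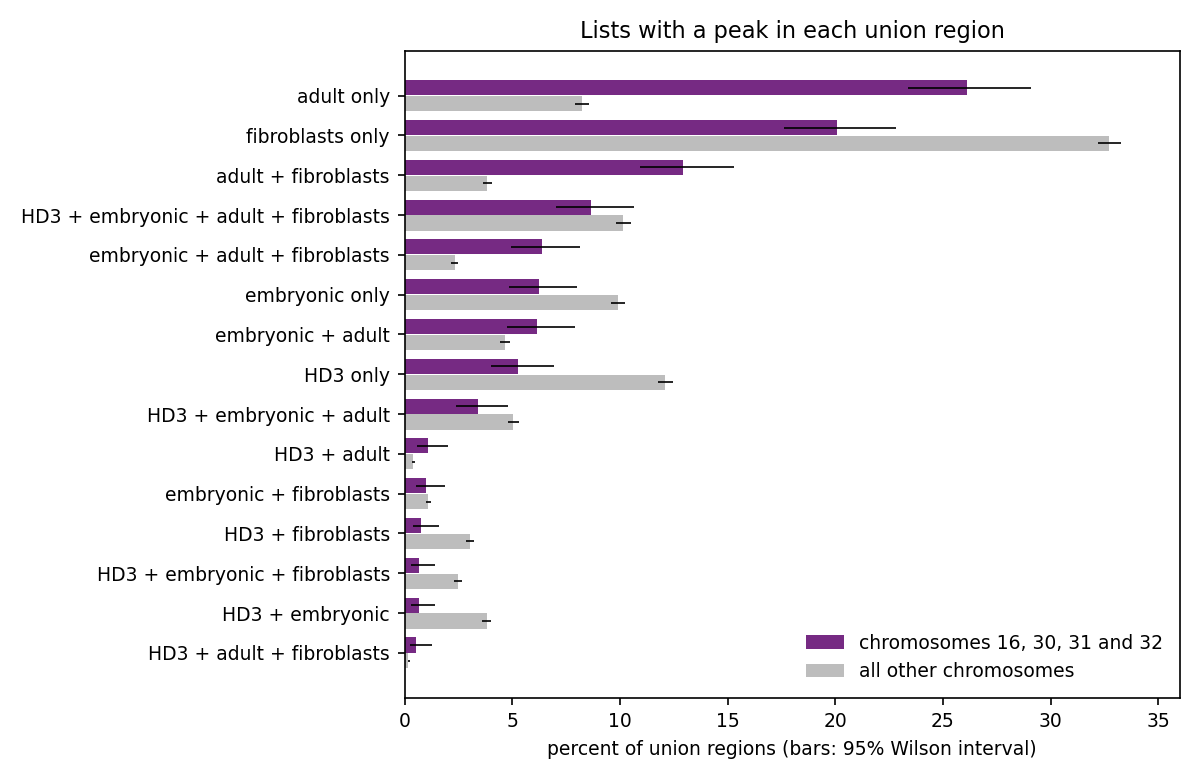
Percent of union regions (horizontal axis, with 95% Wilson intervals) in each combination of lists, for chromosomes 16, 30, 31 and 32 (purple) and for all other chromosomes (grey). The adult-only bar is 26.1% on the 4 chromosomes and the bar for adult cells with fibroblasts 13.0%, while most combinations with HD3 erythroblasts are shorter than on the other chromosomes.

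Counted by peaks, HD3 erythroblast, embryonic and fibroblast peaks on the 4 chromosomes were overlapped more often than in their whole lists, and adult peaks less often. In any other list, 75.6% of HD3 erythroblast peaks on the 4 chromosomes were overlapped (interval 69.2% to 81.1%), with a whole-list background of 68.2%. For embryonic red cells the share was 81.7% (77.1% to 85.6%), with a background of 75.5%. For adult red cells it was 60.4% (56.4% to 64.2%), with a background of 75.9%. For fibroblasts it was 61.6% (57.2% to 65.9%), with a background of 42.6%. These intervals do not hold the background, as a description of the lists and not of replicates. The bin of each chromosome with the most peaks summed over the 4 lists was then left out of every list. These bins began at 1800001 on chromosome 16, 1600001 on chromosome 30, 4700001 on chromosome 31 and 600001 on chromosome 32. In HD3 erythroblasts only the chromosome 16 bin was the list's own fullest. Without these bins the shares were 72.7% in HD3 erythroblasts (65.6% to 78.8%) and 79.1% in embryonic red cells (73.7% to 83.6%). Both intervals held the background. On chromosome 31 alone the embryonic share was 70.0% (60.4% to 78.1%), below the background and with an interval that held it. The adult share without the fullest bins was 57.7% (53.4% to 61.9%) and the fibroblast share 59.4% (54.4% to 64.1%), on the same sides of their backgrounds as with them.

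The partner of each list shifted as well. Adult red cell peaks on the 4 chromosomes were overlapped in HD3 erythroblasts in 21.1%, with a background of 43.5%, and in embryonic red cells in 37.8% (34.0% to 41.7%), with a background of 62.6%. Their overlap in fibroblasts, 44.1% (40.2% to 48.1%), was close to the background of 46.7%. The share in fibroblasts was thus above that in embryonic red cells, with intervals that overlapped, while in the whole list it was below. On chromosome 31 the shares were 45.8% (39.3% to 52.5%) in fibroblasts and 26.2% (20.7% to 32.4%) in embryonic red cells. On chromosome 32 the order was reversed, with 37.0% (24.5% to 51.4%) and 67.4% (53.0% to 79.1%). On chromosomes 16 (41.1% and 38.7%) and 30 (46.8% and 43.4%) the intervals overlapped. The higher fibroblast share thus rested mainly on chromosome 31. In the other direction, on the 4 chromosomes together, 65.0% of HD3 erythroblast peaks were overlapped in adult cells (background 43.1%). The share was 74.4% for embryonic peaks (background 57.1%) and 56.8% for fibroblast peaks (background 30.7%). HD3 erythroblast peaks were overlapped in fibroblasts in 50.8% (background 42.2%) and in all 3 other lists in 40.6% (background 27.0%), and embryonic peaks in HD3 erythroblasts in 40.1% (background 53.7%). The low shares overlapped in HD3 erythroblasts did not hold on chromosome 32. There 70.6% of embryonic peaks (53.8% to 83.2%) and 54.3% of adult peaks (40.2% to 67.8%) were overlapped in HD3 erythroblasts. On chromosome 30 the embryonic share was 49.0% (39.2% to 58.8%), an interval that held the background. The adult share there was 26.6% (20.6% to 33.6%), below its background. On chromosome 31 the shares were 23.0% and 11.7%. The adult list had 601 peaks on these chromosomes, the most of the 4, and a list with more peaks there offers more to overlap. The part of peak number in the overlap shares was not tested.

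By fold enrichment, peaks on the 4 chromosomes were spread over the whole range of each list. The median percentile was 56.3 in HD3 erythroblasts (95% interval from order statistics 50.3 to 62.3), 43.8 in embryonic red cells (38.1 to 47.1), 41.4 in adult red cells (35.7 to 44.5) and 56.2 in fibroblasts (49.6 to 60.9). The top 10% of each list held 13.2% of the HD3 erythroblast peaks (26), 12.2% of the embryonic (38) and 5.49% of the adult red cell peaks (33), and 17.6% of the fibroblast peaks (84). The lowest 10%, again a background of 10.0%, held 8.12%, 9.29% and 17.6% of the erythroid peaks and 15.1% of the fibroblast peaks. The top 1%, with a background of 1.01% in HD3 erythroblasts, held 6, 12 and 5 of the erythroid peaks (3.05%, 3.85% and 0.832%) and 22 of the fibroblast peaks (4.61%). The intervals of the HD3 erythroblast and embryonic shares of the top 10% held the background. Without the fullest bin of chromosome 16 these top 10% shares were 9.84% (6.31% to 15.0%) and 9.59% (6.72% to 13.5%). Chromosome 16 held 5 of the 6 HD3 erythroblast and 9 of the 12 embryonic peaks in the top 1%. The low end also rested on few bins. Without the fullest bin of chromosome 16, which held 28 of the 72 low fibroblast peaks, the lowest 10% held 14.7% of the adult peaks (interval 12.1% to 17.9%) and 9.98% of the fibroblast peaks (7.52% to 13.1%). Without the bin of each chromosome that was fullest over the 4 lists together it held 11.5% of the adult peaks (9.07% to 14.6%). The fibroblast figure was 5.66% (3.76% to 8.41%). The fibroblast share of the top 10% was then 20.3% (16.6% to 24.6%). The fibroblast peaks were thus over the background at the top with and without these bins, while at the low end the fibroblast share was at the background without the chromosome 16 bin, and the adult interval held the background without all 4 bins. A −log10 q of 10 or more was reached by 66.0%, 70.5% and 66.1% of the erythroid peaks, with backgrounds of 58.5%, 74.4% and 70.4%, and by 53.5% of the fibroblast peaks, with a background of 33.5%.

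The median percentile differed between chromosomes within a list. In HD3 erythroblasts it was 62.2 on chromosome 16, 61.1 on chromosome 30, 44.7 on chromosome 31 and 58.7 on chromosome 32. In embryonic red cells it was 48.4, 44.0, 32.8 and 52.9 in the same order, and in adult red cells 33.4, 47.8, 38.0 and 61.9. In fibroblasts it was 29.7, 63.8, 57.9 and 78.5. Chromosome 32 had the highest median of the 4 in embryonic and adult red cells and in fibroblasts, over 34, 46 and 25 peaks, with intervals that overlapped those of other chromosomes.

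Sharing and strength went together on the 4 chromosomes, as they did elsewhere. Peaks on the 4 chromosomes that every other list overlapped had a median percentile of 74.1 in HD3 erythroblasts, 71.7 in embryonic red cells, 72.2 in adult red cells, and 78.8 in fibroblasts. Those that no other list overlapped had 29.0, 22.5 and 28.4 in the erythroid lists and 45.3 in fibroblasts. On the other chromosomes the peaks that every other list overlapped had medians of 65.6, 81.3 and 80.1 in the erythroid lists and 72.8 in fibroblasts, and those that no other list overlapped had 44.6, 24.4 and 26.0, and 42.05 in fibroblasts. The order was thus a property of the whole lists. On chromosome 16 the peaks found in all lists had medians of 76.2 in HD3 erythroblasts (17 peaks), 74.6 in embryonic red cells (17) and 45.6 in adult red cells (19), and 40.7 in fibroblasts (17).

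Peaks on the 4 chromosomes were of similar median width in the 3 erythroid lists, at 173 bp in HD3 erythroblasts (interval 155 to 200), 171.5 bp in embryonic (158 to 184) and 170 bp in adult red cells (159 to 184), and 146 bp (137 to 156) in fibroblasts. On the other chromosomes the medians were 171, 230 and 200 bp in the erythroid lists and 141 bp in fibroblasts. The embryonic and adult peaks were therefore narrower on the 4 chromosomes together than elsewhere, while HD3 erythroblast and fibroblast medians had intervals that held the value of the other chromosomes. Without chromosome 31 the adult median was 183 bp (167 to 203), an interval that held the 200 bp of the other chromosomes. The embryonic median was then 179.5 bp (163 to 192), still below 230 bp. In embryonic red cells the median was 244 bp on chromosome 32 (183 to 327) and 188 bp on chromosome 30 (166 to 217), with intervals that overlapped. In adult red cells it was 211.5 bp on chromosome 32 (150 to 250) and 204 bp on chromosome 30 (167 to 224). Both intervals held the 170 bp of the 4 chromosomes together and the 200 bp of the other chromosomes.

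**Figure D5:**
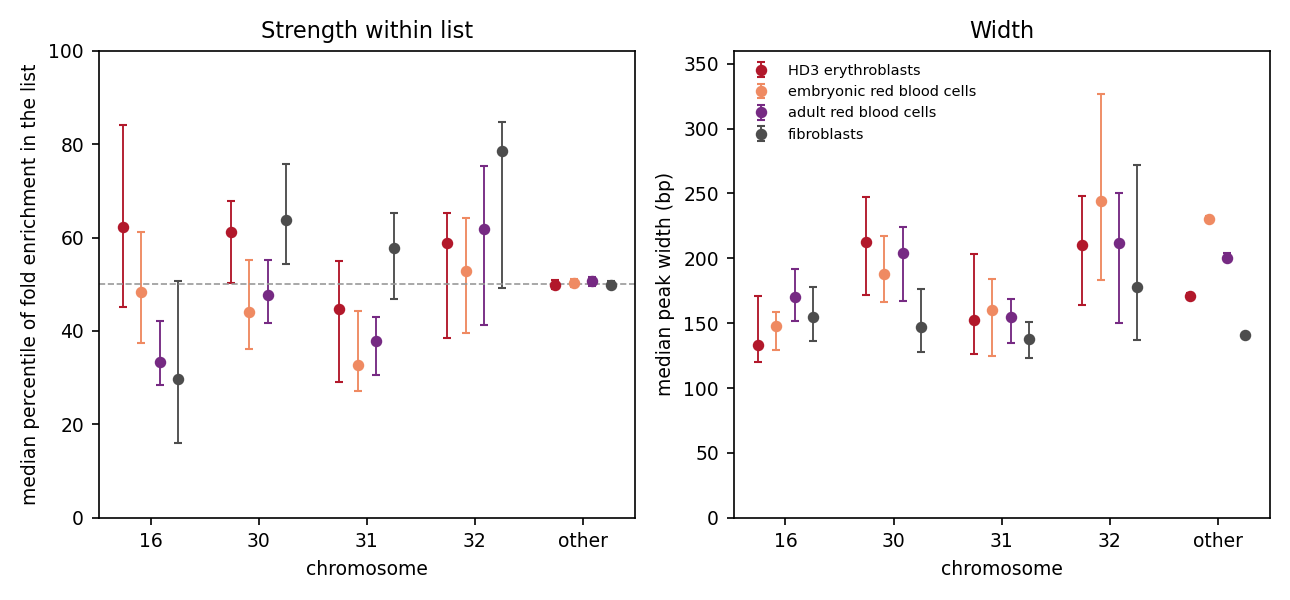
Median percentile of fold enrichment within the list (left; 50 is the middle of the list, dashed) and median peak width in bp (right) on chromosomes 16, 30, 31 and 32 and on all other chromosomes, with 95% intervals from order statistics and 1 colour for each list. Fibroblast percentiles range from 29.7 on chromosome 16 to 78.5 on chromosome 32. The embryonic median width is 148, 188, 160.5 and 244 bp on chromosomes 16, 30, 31 and 32, and 230 bp on the others.

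The peak names carry running numbers with gaps, which show that called peaks were left out of the lists. On the 4 chromosomes 69.4%, 80.2% and 72.7% of the numbers were present in the erythroid lists and 96.4% in fibroblasts, with whole-list backgrounds of 60.8%, 84.5% and 71.5% and, in fibroblasts, 93.3%. The lowest share on a single one of the 4 was 49.4%, for HD3 erythroblasts on chromosome 31, where 41 of 81 numbers were missing and peaks were scarcest. On chromosome 32, where that list was densest, 87.8% were present. The part of these gaps in the counts was not tested.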

How the data were processed

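The data were 4 deposited narrowPeak lists, 1 for each cell type. Whether a list was made from both samples of a cell type or from 1, how the peaks left out were chosen and how reads matching several places were treated are not given in the sources used here; the last can raise or remove peaks in repeated sequence. The labels add that lane 2 of one adult sample ran on another instrument. The submitters' processing notes name Bowtie2 2.3.5, SAMtools 1.9, MACS2 2.1.2 and the build GRCg6a. The deposited values for each peak are a score, a fold enrichment (a ratio), a −log10 p, a −log10 q and the distance of the summit from the start. Every deposited −log10 q was at least 2. These values are the authors' and served to order or select peaks of the same list. The lists hold no read counts, so depth is unknown.

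Starts were written from 1. Peaks were taken by chromosome, binned by summit in 100 kb bins, called overlapping from 1 bp, and merged into union regions. Shares have 95% Wilson intervals, and medians have distribution-free intervals from order statistics. Neighbouring peaks are not independent, so the intervals are too narrow. No test across samples was possible with 1 list per cell type. Groups within the bin of chromosome 31 were split at gaps of 4 kb or more, a choice made after its peaks were seen; the further bins described on chromosomes 30 and 31 that are not the fullest of a list were also picked after their values were seen. The regions named otherwise were, for each chromosome, the 2 regions of all 4 lists with the best worst rank, the strongest peak and the fullest bin of each list, and, for each list, the 2 strongest peaks without overlap and the widest peak. Chromosomes and rules were chosen with earlier results of these data known. The shares at both ends of the lists without the fullest bins were added after the peaks were seen. Overlap counts were tested on simulated lists and equalled those of bedtools 2.31.1. The gene table at hand was of another build, GRCg7b: 64.6% of the chromosome 30 peaks lay past its last gene, so no peak was assigned to a gene, and sequences and motifs were not analysed here. The tools were matplotlib 3.10.9, pandas 2.3.3, NumPy 2.4.6 and SciPy 1.17.1 under Python 3.11.15.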

Additional observations from a re-analysis of the deposited data

How the results depend on the processing

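Of 196 values recomputed under other settings, 81 left the counting interval of the value as reported and the others stayed within it. No value moved with bins shifted by 50 kb, with windows of 200 bp at the summits or with overlaps that had to cover 50% of the shorter interval. Among peaks whose −log10 q reached 10, the fibroblast share of the list was 4.31%, the fibroblast median percentile 46.6 and the median widths 227, 194, 208 and 189 bp in HD3 erythroblasts, embryonic and adult red cells and fibroblasts. Each list's own fullest bins then held 24.1% of embryonic and 26.3% of fibroblast peaks, and 53.8% of union regions were in 1 list. Lists of equal length gave fibroblasts a share of 3.25% and a median width of 160 bp, and 55.4% of adult peaks were overlapped. Ranking by −log10 p gave a fibroblast median percentile of 68.0. As covered bases the shares were 1.98% in HD3 erythroblasts, 2.06% in embryonic red cells and 3.17% in fibroblasts. Without the bin of each chromosome that was fullest over the 4 lists together they were 2.06% in embryonic and 4.60% in adult red cells and 2.21% in fibroblasts. The shares of adult and fibroblast peaks in the lowest 10% of their lists, recomputed after the peaks were seen, left their intervals without the fullest bin of chromosome 16 (14.7% and 9.98%) and without that of each chromosome (11.5% and 5.66%). Bins of 50 kb gave HD3 erythroblasts 17.3% of peaks in that list's own fullest bins.

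Without chromosome 31 the shares of the list were 1.33%, 1.69% and 3.40% in the erythroid lists and 1.59% in fibroblasts, 87.3% of embryonic peaks were overlapped in another list, and 11.8% of union regions were in 4 lists and 54.2% in 1. Taken alone, in the order HD3 erythroblasts, embryonic and adult red cells and fibroblasts, the shares of the list were 0.340%, 0.653%, 1.47% and 0.707% for chromosome 16, 0.629%, 0.764%, 1.52% and 0.741% for chromosome 30, 0.340%, 0.796%, 1.88% and 1.11% for chromosome 31, and 0.366%, 0.271%, 0.404% and 0.141% for chromosome 32. These shares move by construction, since each holds fewer peaks.

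Chromosome 16 alone gave 87.5% of HD3 erythroblast peaks overlapped, median widths of 133 and 148 bp in HD3 erythroblasts and embryonic cells, and median percentiles of 48.4, 33.4 and 29.7 in embryonic and adult red cells and fibroblasts. Chromosome 30 alone gave 68.7% of fibroblast peaks overlapped, widths of 212.5, 188 and 204 bp in the erythroid lists, percentiles of 47.8 in adult cells and 63.8 in fibroblasts, and 13.3% of regions in 4 lists. Chromosome 31 alone gave 70.0%, 55.6% and 55.6% overlapped in embryonic and adult cells and fibroblasts, widths of 152.5 and 154.5 bp in HD3 erythroblasts and adult cells, percentiles of 44.7 and 32.8 in HD3 erythroblasts and embryonic cells, and 3.71% of regions in 4 lists and 63.4% in 1. Chromosome 32 alone gave 97.1%, 71.7% and 92.0% overlapped in embryonic and adult cells and fibroblasts, widths of 210 bp in HD3 erythroblasts, 244 bp in embryonic cells, 211.5 bp in adult cells and 178 bp in fibroblasts, percentiles of 52.9, 61.9 and 78.5 in embryonic and adult cells and fibroblasts, and 22.7% of regions in 4 lists and 42.4% in 1. The cause of these moves was not tested.

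No paired analysis was possible because the data hold a single list for a cell type, which also leaves no replicate to omit. The planned comparison of peak sequences was not run, because no genome of the build of the lists was used.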
